A study of Mus musculus with 4 samples.

Results

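Carbonic anhydrases were followed in F9 embryonal carcinoma cells, a mouse teratocarcinoma line that resembles undifferentiated embryonic cells. The genes described are Car2, Car3, Car13 and Car8, whose products lie in the cytosol, Car4, Car9, Car12 and Car14, whose products lie at the membrane, and Car11, whose product is secreted. These 9 genes were taken by exact gene symbol, and every probe set listed with one of them alone was used, 19 of 45037 probe sets tested and 9 of 18193 genes. They were chosen with results of this same comparison known, so their values are given as a description, without a test. Cells of the shPhf19 group (2 arrays) stably carried a pLKO.1 lentiviral short hairpin RNA against Phf19, and cells of the shVector group (2 arrays) carried the pLKO.1 vector control. Both groups had been infected and selected with puromycin, so neither is an untreated culture. The series text speaks of 2 cell lines in each group and the labels of biological replicates. Whether a line was 1 clone, the number of hairpins and the origin of the replicates (separate infections or not) are not stated, so SDs and SEs measure the spread between these arrays. The Phf19 product is an accessory factor of Polycomb repressive complex 2, and the comparison asked which transcripts differ when it is knocked down.

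Carbonic anhydrases are zinc enzymes that convert carbon dioxide and water to bicarbonate and a proton, and back. They let cells move acid and carbon dioxide across membranes, together with bicarbonate transporters and proton exporters. Some members of the family, such as Car8 and Car11, lack the zinc-binding residues needed for catalysis and have other roles.

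The promoters of Car14 and Car9 are shown because Car14 was the membrane member with the largest difference between the groups and Car9 is the family's best known target of hypoxia-inducible factor. Both sequences are RefSeq entries of build GRCm38.p6 and run from 250 bases before to 50 bases after an annotated start. Capitals mark the letters CACGT, which read ACGTG, a form of the core of the hypoxia response element, on the other strand. Other forms of that core were not searched.
Car14 promoter, chr3:95904636-95904935, minus strand: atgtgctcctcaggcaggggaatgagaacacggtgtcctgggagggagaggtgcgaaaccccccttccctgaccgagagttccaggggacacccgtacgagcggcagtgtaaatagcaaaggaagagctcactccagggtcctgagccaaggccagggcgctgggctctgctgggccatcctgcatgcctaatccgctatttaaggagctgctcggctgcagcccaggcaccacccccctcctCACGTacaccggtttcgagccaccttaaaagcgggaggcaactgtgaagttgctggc
Car9 promoter, chr4:43506776-43507075, plus strand: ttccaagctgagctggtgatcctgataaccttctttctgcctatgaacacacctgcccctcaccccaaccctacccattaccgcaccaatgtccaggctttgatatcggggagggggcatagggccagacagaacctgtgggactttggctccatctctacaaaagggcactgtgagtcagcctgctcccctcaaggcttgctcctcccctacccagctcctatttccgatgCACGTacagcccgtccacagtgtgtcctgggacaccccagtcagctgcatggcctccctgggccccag
The match began 7 bases before the annotated start of Car14 and 18 bases before that of Car9. ACGTG was searched on both strands, and 19.6% of 32851 promoters of this length held it. Of the 5 members with a promoter entry (Car4, Car9, Car11, Car12 and Car14), 3 held it, the other being Car4. CACGTG, an E-box that contains ACGTG, was in 7.2% of all promoters and in 0 of the 5. A match is a string of letters and not a measured binding site. The Car14 promoter held 13 CpG dinucleotides and the Car9 promoter 5, against a median of 7 over all promoters. Fewer were held by 62.1% of all promoters for Car14 and by 38.0% for Car9, so neither count was extreme. The Car4 promoter held 15, that of Car12 9, and the Car11 entries 11 and 13.

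Car3 and Car14 stood apart from the other 7 genes. By their representative probe sets, both read about 2.5 times as high in shPhf19 cells as in shVector cells. The other probe sets of Car3 differed by less. The representative probe sets of Car2, Car4, Car9, Car11, Car12 and Car13 differed by less than 0.14 on the log2 scale, in either direction. Car8 lay between, at a dim signal. The probe set with the strongest mean signal over all arrays stood for each gene. Levels below are log2 expression values of 1 probe set and were not set against those of another probe set. The array medians lay between 5.75 and 5.76, and a value below them may be background, since the table holds no detection calls.

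Among the cytosolic genes, Car3 encodes an isozyme of low activity that is abundant in skeletal muscle, fat and liver. Its probe set 1449434_at read 9.28 and 9.33 in shPhf19 cells, against 7.84 and 8.05 in shVector cells. Both shPhf19 arrays lay above both shVector arrays, and the distance between the groups was several times the gap between replicates, which was 0.04 in shPhf19 and 0.22 in shVector. The means were 9.31 ± 0.03 in shPhf19 and 7.94 ± 0.15 in shVector (SD, n = 2 each), a difference of 1.36 ± 0.10 (SE) or 2.57-fold (95% interval 2.19 to 3.01). By size of difference Car3 ranked 25th of 18193 genes.

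The 4 probe sets of Car3 did not show differences of the same size. Probe set 1460256_at, drawn from the same RefSeq transcript record as 1449434_at, read 6.65 and 6.78 in shPhf19 cells and 5.84 and 6.32 in shVector cells. It was higher in shPhf19 cells on every array, by 0.64 ± 0.16 (SE), but its shVector arrays lay 0.48 apart. The other 2 probe sets come from a different sequence record and read below the array median. Of these, 1453588_at read 3.52 and 3.12 in shPhf19 cells and 2.89 and 3.07 in shVector cells, a difference of 0.33 ± 0.15 (SE) that rested mainly on shPhf19 replicate 1. For 1430584_s_at the groups overlapped, at 5.27 and 5.31 in shPhf19 cells and 5.30 and 5.02 in shVector cells, with a difference of 0.13 ± 0.12 (SE). All 4 differences were above 0. Averaged over the 4 probe sets the difference was 0.62.

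**Figure D1:**
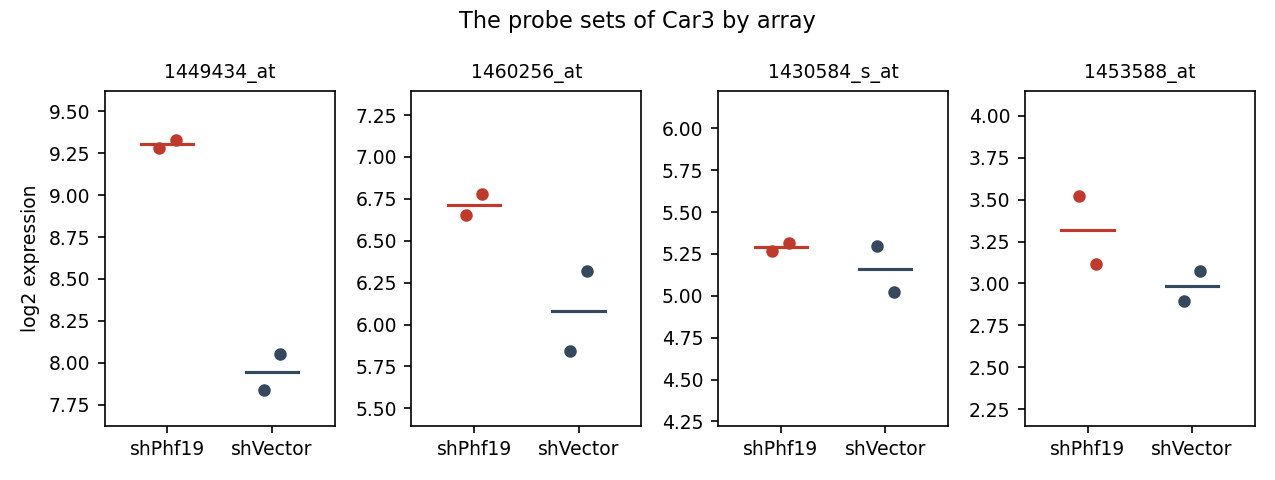
Log2 expression of the 4 probe sets of Car3 on each array, with shPhf19 left and shVector right in each panel. Points are arrays, lines are group means, and every panel spans 2 log2 units. The groups lie 1.36 apart for 1449434_at and overlap for 1430584_s_at.

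Car2 encodes the highly active cytosolic isozyme of red cells, kidney and osteoclasts. Its probe set read 12.70 and 12.60 in shPhf19 cells, against 12.52 and 12.61 in shVector cells. The groups overlapped and the signal was strong on every array. The difference was 0.08 ± 0.06 (SE; 95% interval -0.06 to 0.22), so any rise beyond 1.17-fold lay outside the interval. In the RefSeq gene order Car13, Car1, Car3 and Car2 are successive genes on chromosome 3 among those with a probe set of their own. The large difference of Car3 was thus not seen for its neighbour Car2. It was not seen for Car1 either, which read 4.77 and 4.41 in shPhf19 cells and 4.77 and 4.83 in shVector cells. The Car1 values lay below the array medians and may be background, so they say little about that gene (95% interval of the difference -0.54 to 0.12).

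Car13 encodes a cytosolic isozyme found in many tissues. Probe set 1421307_at read 6.76 and 6.86 in shPhf19 cells, against 6.70 and 6.65 in shVector cells, which did not overlap but lay only 0.14 ± 0.09 (SE) apart. Its dim probe set 1439620_at showed a larger difference of 0.46 ± 0.11 (SE), reading 4.15 and 4.31 in shPhf19 cells and 3.69 and 3.84 in shVector cells. The third, 1421308_at, read 5.74 and 5.43 in shPhf19 cells and 5.42 and 5.57 in shVector cells, and its groups overlapped. The probe sets of Car13 therefore gave differences from 0.09 to 0.46.

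Car8 encodes a protein without carbonic anhydrase activity that is abundant in cerebellar Purkinje cells and binds the inositol trisphosphate receptor. Probe set 1427482_a_at read 4.05 and 4.26 in shPhf19 cells, against 3.65 and 3.61 in shVector cells. The groups did not overlap, with a difference of 0.53 ± 0.11 (SE) or 1.44-fold, but all 4 values lay below the array medians. Of its other probe sets, which were dimmer still, 1424958_at differed by 0.22 ± 0.10 (SE) and 1457904_at by -0.05 ± 0.09 (SE).

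Among the membrane genes, Car14 encodes a transmembrane isozyme with an extracellular active site, known from neurons, retina, heart and kidney. Its only probe set, 1450725_s_at, read 8.05 and 8.10 in shPhf19 cells, against 6.87 and 6.67 in shVector cells. As with Car3, the shPhf19 arrays lay close together and well above the shVector arrays. The means were 8.08 ± 0.04 in shPhf19 and 6.77 ± 0.14 in shVector (SD, n = 2 each), a difference of 1.31 ± 0.10 (SE) or 2.48-fold (95% interval 2.10 to 2.92). Car14 ranked 29th of 18193 genes by size of difference. The suffix of the probe set marks probes that several transcripts can share, and no second probe set was there to check it. The annotated span of Car14 also overlaps that of its neighbour Aph1a.

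Car9 and Car12 encode transmembrane isozymes that many tumours induce under low oxygen. Car9 read 4.77 and 5.10 in shPhf19 cells, against 4.97 and 5.09 in shVector cells, all below the array medians. Its difference was -0.09 ± 0.13 (SE; 95% interval -0.41 to 0.22) and the groups overlapped. Probe set 1428485_at of Car12 read 4.35 and 4.20 in shPhf19 cells and 4.48 and 4.23 in shVector cells, a difference of -0.08 ± 0.12 (SE). The other 2 Car12 probe sets differed by -0.14 and 0.01, also with overlapping groups and dim signal.

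Car4 encodes an isozyme anchored to the outer membrane by a lipid, known from lung and kidney. Probe set 1418094_s_at read 4.35 and 4.14 in shPhf19 cells and 4.34 and 3.99 in shVector cells, with overlap and a difference of 0.08 ± 0.14 (SE). Its dimmer probe set 1448949_at read 3.30 and 3.47 in shPhf19 cells and 3.16 and 3.17 in shVector cells, a difference of 0.22 ± 0.10 (SE). Car11, which encodes a secreted protein of the brain without enzyme activity, read 6.81 and 6.74 in shPhf19 cells and 6.66 and 6.77 in shVector cells. These arrays overlapped too, and the difference was 0.06 ± 0.09 (SE; 95% interval -0.16 to 0.28).

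**Figure D2:**
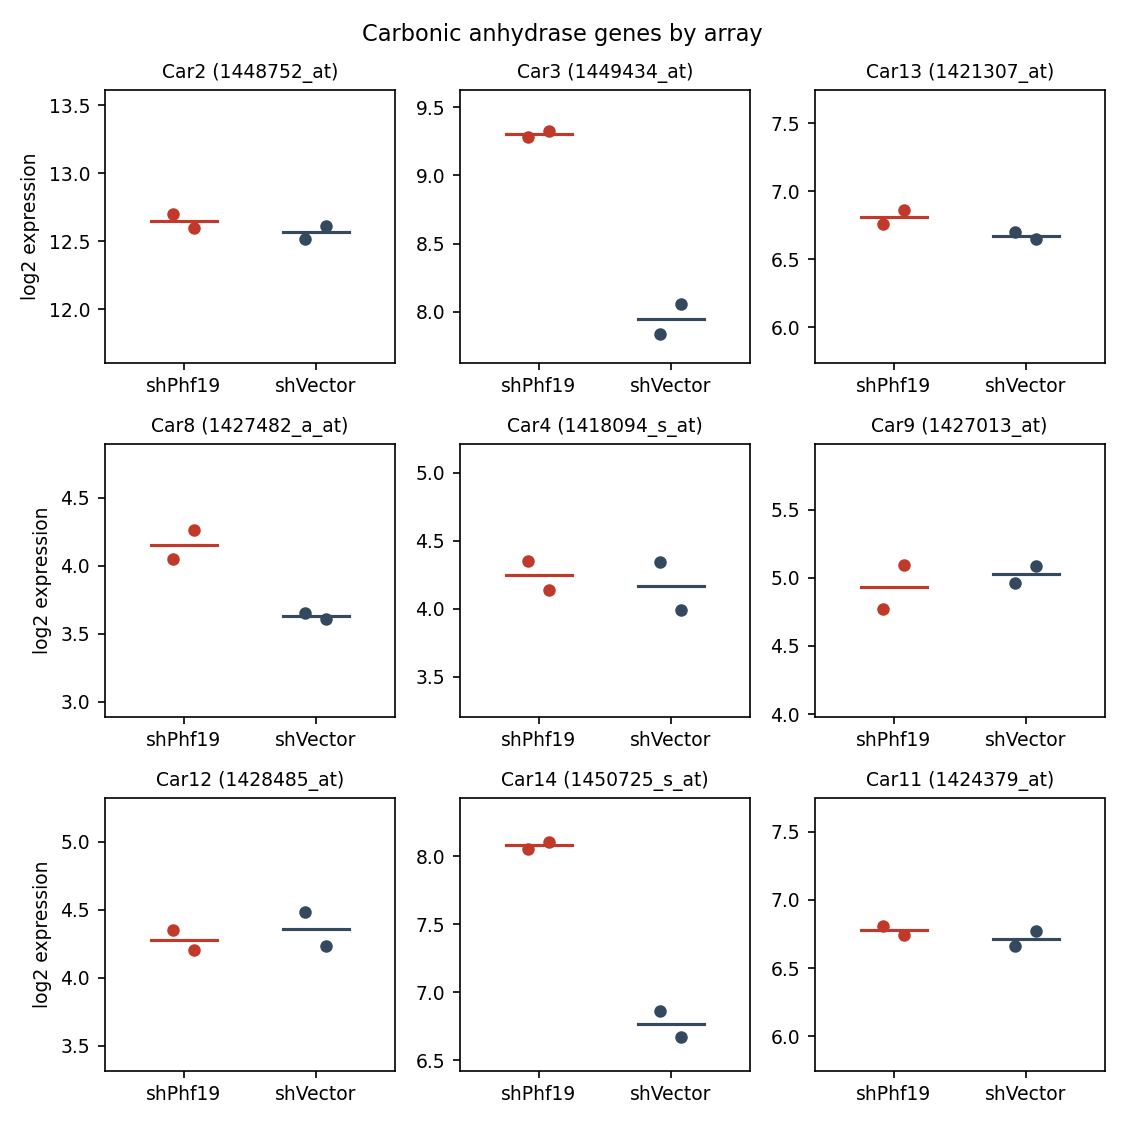
Log2 expression of the 9 carbonic anhydrase genes on each array by representative probe set, shPhf19 left and shVector right. Points are arrays, lines are group means, and every panel spans 2 log2 units. Car3 and Car14 separate by 1.36 and 1.31, Car8 by 0.53, and the other genes by less than 0.14 in either direction.

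Across the family, the fit over all probe sets (limma, Benjamini-Hochberg adjusted p under 0.05) called 2 of the 19 member probe sets, 1449434_at of Car3 and 1450725_s_at of Car14, both higher in shPhf19 cells. Of all probe sets tested, 1.41% were called in either direction, 0.83% as higher and 0.582% as lower, and nothing is read from the members' count beside these shares, since the genes were chosen on the same contrast. With any 1 of the 4 arrays left out, 0 member probe sets were called, as were 0 of all probe sets, and 0 were called with the replicate number as a block. Among the member probe sets, 9 had both shPhf19 arrays above both shVector arrays, 0 had both below, and 10 overlapped. Over all probe sets 19.4% had both shPhf19 arrays above, 21% had both below and 40.5% did not overlap in either direction. By location, 7 of the 11 cytosolic probe sets and 2 of the 8 membrane or secreted ones lay wholly above. The median difference was 0.22 for the cytosolic probe sets and 0.04 for the others. Probe sets of 1 gene are not independent, and the 11 come from 4 genes and the 8 from 5. By representative probe set, 3 of the 4 cytosolic genes and 1 of the 5 others lay wholly above, with median differences of 0.33 and 0.06. Of the cytosolic probe sets, 7 had group means below the array median, as had 6 of the others. Whether the locations differ was not tested. Of the 19 probe sets, 13 had group means below the median of the arrays.

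**Figure D3:**
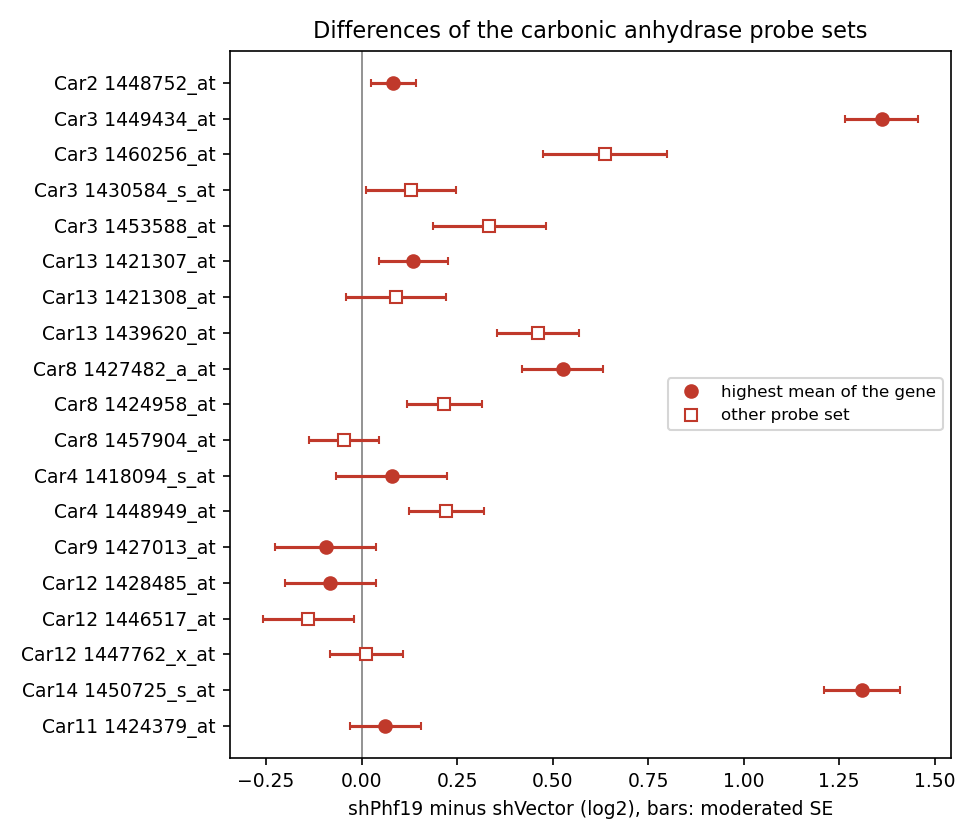
Difference between shPhf19 and shVector in log2 expression for all 19 carbonic anhydrase probe sets, with moderated standard errors. Filled circles are representative probe sets and open squares the others. The only points beyond 1 are 1 probe set of Car3 and that of Car14.

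The remaining carbonic anhydrases were Car1, Car5a, Car5b, Car6, Car7, Car10 and Car15, and 0 of these 7 passed the same test. Their median difference was -0.08, against 0.00 over all genes, of which 2.02% were called. Car5a, a mitochondrial isozyme, had the smallest p among them, at 5.63 and 5.75 in shPhf19 cells and 5.92 and 5.79 in shVector cells, a difference of -0.17 ± 0.10 (SE; limma adjusted p = 0.596). Car1, the second abundant isozyme of red cells, followed at -0.21 ± 0.14 (SE; limma adjusted p = 0.622). Before adjustment, 0 of the 7 had a limma p under 0.05, against 5708 of the 45037 probe sets tested. The array median was exceeded by 4 of the 7.

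Of the genes that work beside carbonic anhydrases in acid and bicarbonate transport, 0 were called as well, against 2.02% of all genes. At that share a list of this size may hold no called gene, so nothing is read from these counts. Among 18 measured bicarbonate and anion transporters of the Slc4 and Slc26 families, 0 passed, 0 had an unadjusted limma p under 0.05 and the median difference was -0.05. Over all 45037 probe sets tested, 5708 had an unadjusted limma p under 0.05. Only 8 of the 18 read above the array median, and below it a signal may be background. Differences were above 0 for 8 and below 0 for 10. The smallest p values belonged to Slc26a10 (-0.20 ± 0.09 SE, limma adjusted p = 0.448) and Slc4a11 (-0.18 ± 0.10 SE, limma adjusted p = 0.534). Among 16 proton and lactate exporters and their partners, 0 passed, 3 had an unadjusted limma p under 0.05, and the median was -0.01. Emb, which encodes the embigin chaperone of lactate transporters, read 9.98 and 9.77 in shPhf19 cells and 10.22 and 10.42 in shVector cells (-0.45 ± 0.10 SE, limma adjusted p = 0.119). Hvcn1, the voltage-gated proton channel, was at -0.20 ± 0.07 (SE, limma adjusted p = 0.344). Of 20 subunits of the vacuolar proton pump 0 passed, 3 had an unadjusted limma p under 0.05, and the median was 0.03. Here 15 of the 20 read above the array median. The catalytic subunit gene Atp6v1a was at 0.26 ± 0.07 (SE, limma adjusted p = 0.172) and the membrane subunit gene Atp6v0e at -0.20 ± 0.05 (SE, limma adjusted p = 0.190).

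Since Car9 and Car12 are known targets of hypoxia-inducible factor, other such targets were read beside them. Of 21 measured, 0 passed, against 2.02% of all genes. An unadjusted limma p under 0.05 was found for 5 of them, against 5708 of the 45037 probe sets tested. Nothing is read from either count beside these shares. Differences were above 0 for 10 and below 0 for 11, with a median of -0.01. The prolyl hydroxylase gene Egln1 was at -0.32 ± 0.07 (SE, limma adjusted p = 0.103) and the hexokinase gene Hk2 at -0.22 ± 0.06 (SE, limma adjusted p = 0.170).

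**Figure D4:**
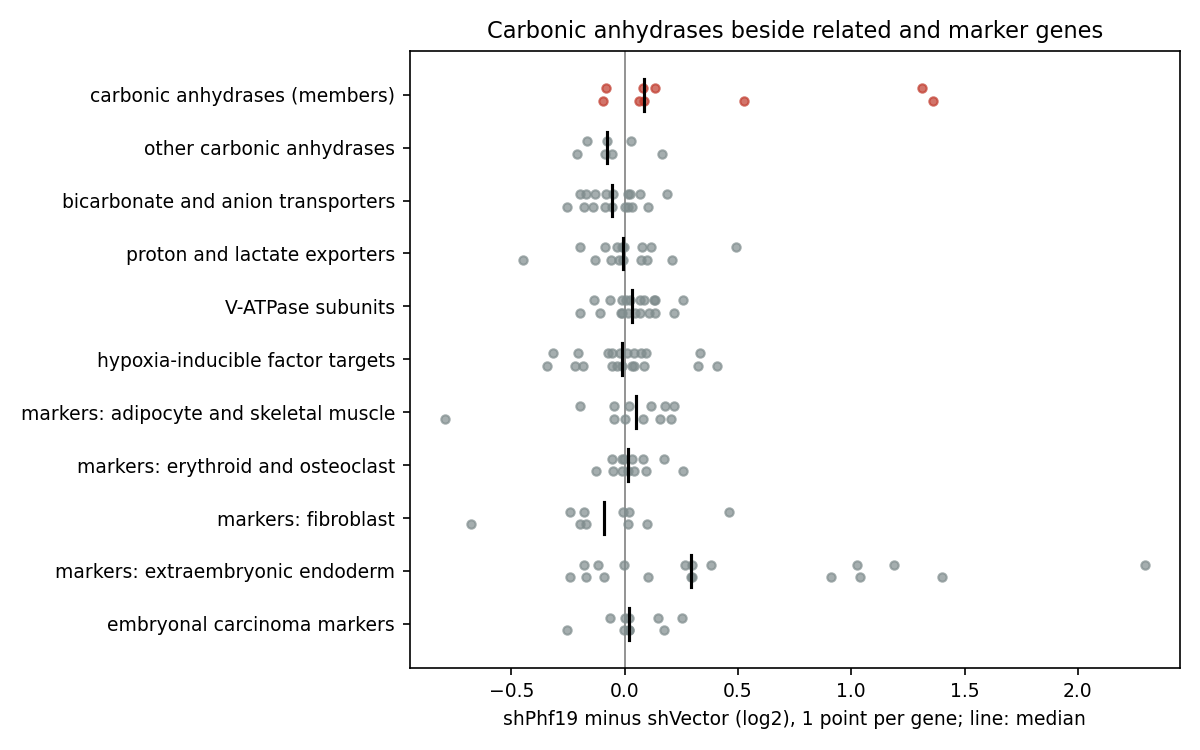
Difference between shPhf19 and shVector in log2 expression, 1 point per gene by its representative probe set, for the 9 carbonic anhydrases and for related and marker gene lists. Vertical bars are list medians, which lie between -0.09 and 0.29. Car3 and Car14 lie beyond 1, as do 5 genes of the extraembryonic endoderm list.

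The cultures were checked against cell markers in the same fit. In it 2.02% of all genes were called, and 5708 of the 45037 probe sets had an unadjusted limma p under 0.05. Nothing is read from the counts of the lists below beside these shares. All 10 embryonal carcinoma markers read above the array median, and 0 passed as changed (median 0.02), with 4 at an unadjusted limma p under 0.05. The pluripotency factor gene Nanog was at -0.26 ± 0.05 (SE, limma adjusted p = 0.0923) and Dppa4 at 0.25 ± 0.06 (SE, limma adjusted p = 0.146). Markers of adipocytes and skeletal muscle, tissues rich in Car3, were read next. Of 12 measured, 0 passed and 1 had an unadjusted limma p under 0.05. Only 4 of the 12 read above the array median, and below it a signal may be background. Differences were above 0 for 8 of the 12 and below 0 for 4. The median was 0.05, and their summed signal on the linear scale was 546 and 564 in shPhf19 cells and 541 in both shVector arrays. Adipoq, the adipocyte hormone gene, read 3.82 and 4.11 in shPhf19 cells and 4.66 and 4.85 in shVector cells, a difference of -0.79 ± 0.13 (SE, limma adjusted p = 0.0502), and the muscle actin gene Actc1 was at -0.20 ± 0.09 (SE, limma adjusted p = 0.445). Erythroid and osteoclast markers, of cells rich in Car2, had 0 of 13 passing, 1 at an unadjusted limma p under 0.05 and a median of 0.01. Of these 13, only 3 read above the array median. The osteoclast phosphatase gene Acp5 was at 0.26 ± 0.09 (SE, limma adjusted p = 0.315) and the embryonic globin gene Hbb-y at 0.17 ± 0.10 (SE, limma adjusted p = 0.541). Of 10 fibroblast markers 0 passed and 2 had an unadjusted limma p under 0.05, with a median of -0.09. Of these 10, 3 read above the array median. The growth factor receptor gene Pdgfrb was at -0.68 ± 0.14 (SE, limma adjusted p = 0.0923) and the surface antigen gene Thy1 at 0.46 ± 0.12 (SE, limma adjusted p = 0.169).

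Of the extraembryonic endoderm genes, some were called in the same direction as Car3 and Car14. Of 18 measured, 6 rose, 0 fell and 12 did not pass (limma), against 2.02% of all genes called in either direction. The list was chosen with earlier results of these data known, so nothing is read from this count beside that share. Before adjustment 10 had a limma p under 0.05, against 5708 of the 45037 probe sets tested, and nothing is read from this count either. Differences were above 0 for 12 and below 0 for 6, with a median of 0.29. Those below 0 were Sox7 (-0.24), Thbd (-0.18), Afp (-0.17), Sparc (-0.12), Apoa1 (-0.09) and Ttr (-0.001), and 0 of them passed. Of these, Sox7 and Sparc gave strong signals, and both shPhf19 arrays lay below both shVector arrays. The 6 called were the endocytic receptor and adaptor genes Cubn and Dab2, the transcription factor gene Gata6, and the basement membrane genes Col4a1, Col4a2 and Lamb1. Their differences ran from 0.91 to 2.30 by representative probe sets. Further probe sets did not pass for Dab2 (0.09 to 0.44) or Gata6 (0.08 and 0.00). Of the other Lamb1 probe sets 1 passed (1.05), and those at 0.30 and 0.38 did not. The second probe sets of Cubn (1.34) and Col4a1 (0.66) passed. With any 1 of the 4 arrays left out, 0 of the 18 genes were called. The list's summed linear signal was 6341 and 6310 in shPhf19 cells, against 5114 and 5097 in shVector cells. Strong signals weigh most in such a sum, and it includes the 6 called genes, so it is not a separate observation. Of the 18 genes, 11 read above the array median. The part of differentiating cells in the differences of Car3 and Car14 was not tested, and in a bulk culture more cells of a type and more RNA per cell cannot be told apart.

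Phf19, the targeted gene, was lower in shPhf19 cells by 1427920_at, at 5.08 and 5.17 against 6.07 and 6.14 in shVector cells. Its other probe set, 1431857_at, has the stronger mean signal and is the representative by the rule used here. There the groups overlapped, at 6.05 and 6.26 in shPhf19 cells and 6.32 and 6.11 in shVector cells, a difference of -0.06 ± 0.12 (SE). The lower Phf19 signal thus rests on 1427920_at alone. The genes whose 4-array pattern lay closest to that of Car3, after each gene's own mean was subtracted, were the neuronal transcription factor gene Neurod1 (Euclidean distance 0.12), the ephrin-B2 gene Efnb2 (0.14) and the homeobox gene En2 (0.15), among 18193 genes. With 4 arrays in 2 groups, such closeness says mainly that the groups differ by a like amount.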

How the data were processed

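Total RNA was hybridised to Affymetrix mouse 430 2.0 arrays, 2 per group. The deposited table holds 1 value per probe set and array, read here as log2 expression from its range (2.31 to 14.7), with array medians that nearly coincide. Scale, software and background correction: not given in the sources used here. Of 45101 probe sets, 64 control probe sets were left out. GEO's platform annotation named the genes, and a RefSeq table of GRCm38.p6 kept all 9 member symbols.

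The 2 groups were fitted in R 4.3.3 with limma 3.58.1 (lmFit, eBayes with intensity trend) and compared two-sided, as shPhf19 minus shVector, with Benjamini-Hochberg adjustment over 45037 probe sets. SEs are moderated, on a median of 6.51 degrees of freedom. The number of arrays limits the precision.

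The members and all gene lists were chosen with earlier results of these data known. Of 10 lists with 154 genes, 145 were measured by a probe set of their own. Named were every member, each called list gene or, where none was called, the 2 with the smallest p, and the 3 genes closest to the member with the largest difference. Each alternative in the closing section changed 1 choice. Same-numbered arrays deviated from their group means with a correlation of -0.197 and no label ties a number to a day or batch, so arrays were not paired.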

Additional observations from a re-analysis of the deposited data

How the results depend on the processing

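The differences of Car3 and Car14 kept their direction under every alternative run. Without 1 array, Car3 ran from 1.25 to 1.47 and Car14 from 1.21 to 1.41. Averaged over all probe sets of the gene, Car3 moved to 0.62, Car8 to 0.23 and Car13 to 0.23. With 1 array left out, Car4 ran from -0.10 to 0.25, Car9 from -0.26 to 0.07 and Car12 from -0.21 to 0.04. Car2 ran from 0.03 to 0.14, Car11 from 0.01 to 0.12, Car13 from 0.08 to 0.19 and Car8 from 0.42 to 0.63. The directions of Car4, Car9 and Car12 changed between these runs and were not settled. Those of Car2, Car11 and Car13 held but were not settled either. With all arrays their intervals were -0.06 to 0.22, -0.16 to 0.28 and -0.08 to 0.36, which span both directions. For Car8, the dimmer probe set 1457904_at differed by -0.05, opposite in direction to its representative. A filter on the lowest 25% of probe sets removed Car8, and one on the lowest 50% removed Car8, Car4, Car9 and Car12.

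Calls depended on the model. The 2 called carbonic anhydrase probe sets numbered 2 also under quantile normalization, median centring, no variance trend and both filters. They numbered 0 with the replicate number as a block and 0 with any 1 array left out, where limma called 0 probe sets at all (unadjusted p under 0.05 in 2539 to 6942, and in 5708 with all arrays); each such fit has 1 array in a group, assumed to vary like the other group. With the replicate block, limma likewise called 0 probe sets higher, 0 lower and 0 of the endoderm markers; the samples share only a number. A block with crossed numbers, chosen after seeing the data, called 337 higher and 259 lower. Of all probe sets tested, 374 were higher and 262 lower, against 229 and 151 without a variance trend. The endoderm markers called fell to 0 without any 1 array, against 6. Of the adipocyte and muscle markers 1 was called under quantile normalization, 1 under median centring and 1 without the lowest 25% of probe sets.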

Other observations

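The nearest genes on either side of each carbonic anhydrase, in RefSeq gene order among genes with a probe set of their own, gave 15 genes that are not members, and 1 of them was called by limma, against 2.02% of all genes. It was Aph1a, which encodes a subunit of gamma-secretase and lies beside Car14 on chromosome 3, with annotated spans that overlap. It was singled out after its values were seen. Probe set 1424980_s_at of Aph1a read 9.70 and 9.98 in shPhf19 cells, against 10.72 and 10.68 in shVector cells, a difference of -0.86 ± 0.10 (SE), opposite in direction to Car14. Its other probe sets, 1424979_at (-0.40 ± 0.10 SE) and 1451554_a_at (-0.34 ± 0.08 SE), also had both shPhf19 arrays below both shVector arrays but did not pass. The differences of the other 14 neighbours lay between -0.21 and 0.38.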
